A study of Caenorhabditis elegans with 2 samples.

Results

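The lbp genes of Caenorhabditis elegans encode the lipid binding proteins, the fatty acid binding protein family of the worm. The 9 members, lbp-1 to lbp-9, were chosen by gene symbol out of 46739 genes in the deposited table, and all 9 are in it. They were known to include genes with a large difference between the strains when they were chosen, so the differences are a description of these libraries and not a test. Of the 9, 3 are X-linked and 6 are autosomal.

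RNA from dissected gonads was sequenced from wild-type (N2) worms and from YBT7 worms a day after the L4 stage, with 1 library for each strain. The study's methods describe the worms as adult hermaphrodites. YBT7 carries deg-1(huj32), linc-20(huj2) and hujCf1, and its X chromosome is divided, so that the outer parts make up a linear segment and the middle part an internal segment. The strain was established after outcrosses to wild type, and the number of worms per library is not given in the sources used here. The comparison addresses whether transcripts of X-linked genes differ in gonads when the X chromosome is not continuous, and the autosomal members of the family serve as the other side of that comparison.

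Fatty acid binding proteins are small proteins that fold into a barrel around a fatty acid or a related lipid, keep it soluble and carry it between membranes, enzymes and nuclear receptors. In the worm, LBP-1, LBP-2 and LBP-3 carry signals for secretion, while the other members are mostly intracellular. The intestine is the main site of fat storage and of yolk synthesis in the adult, and yolk lipid is taken up by oocytes through the receptor RME-2.

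The libraries differed in depth. Counts summed to 2873065 in wild type and to 4525439 in YBT7, and 3 counts, used as the floor of detection, were 1.04 CPM (counts scaled to the library total) in wild type and 0.663 CPM in YBT7. Counts were divided by size factors (0.816 and 1.22) to give normalized counts. A gene counted as measured when the mean of its 2 normalized counts was above 5. It was called higher or lower when the absolute log2 fold was above a limit of 5 divided by the square root of that mean, plus 1, which is the rule of the study's methods. Intervals are exact 95% intervals for the counting of reads only. With 1 library per strain, differences could not be set against the spread between replicates, and p-values were not computed. The title and genotype of the second library name YBT7, although another of its labels also holds the words wild type. The linc-20 gene, which is deleted in YBT7, had 4 counts in wild type against 0 in YBT7, too few to check the labels. Germline and oocyte markers were detected in both libraries, with none of 12 and none of 10 measured genes called and median log2 folds of -0.36 and -0.13.

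In YBT7 gonads, 4 of the 8 measured lbp genes were called higher and none was called lower. Over all measured genes the rule called 9.55% higher and 1.25% lower. The called members were lbp-2 and lbp-1 on the X chromosome, lbp-6 on chromosome I and lbp-7 on chromosome V. The median log2 fold of the 8 members, with lbp-7 set against the floor of 3 counts, was 1.38, against -0.030 over all 8618 measured genes. In these bulk samples, more cells that express a gene and more RNA per cell cannot be told apart.

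**Figure D1:**
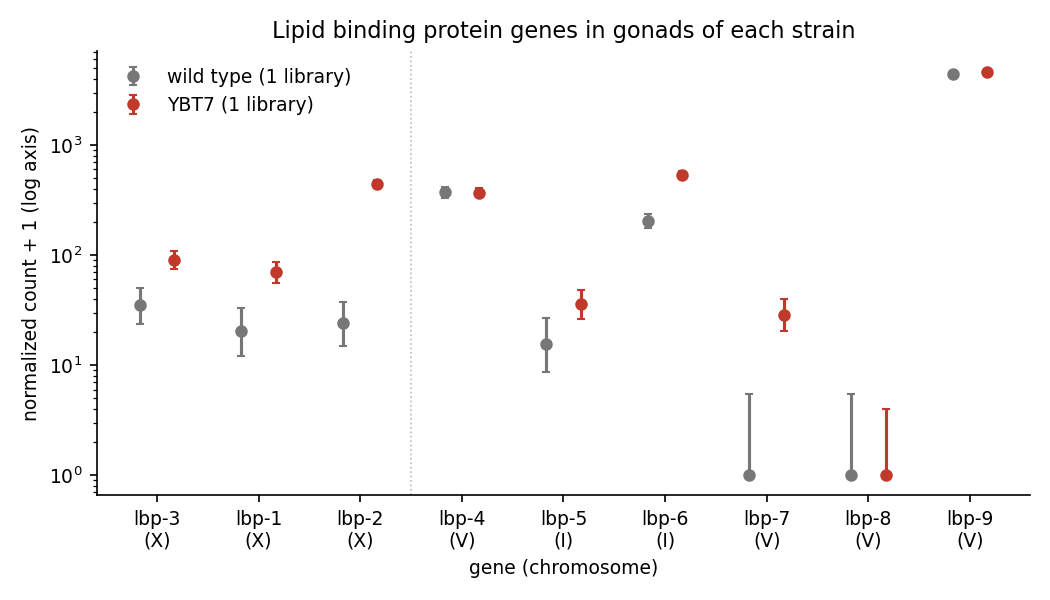
Normalized count plus 1 (log axis) of each lbp gene in the wild-type library (grey) and the YBT7 library (red), with exact Poisson intervals at 95%, X-linked genes to the left of the dotted line. The lbp-2 gene moved from 23.3 to 440.9 normalized counts, lbp-4 and lbp-9 stayed close to their wild-type level, and lbp-8 had no count in either library.

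The X-linked members form a cluster. On WBcel235, lbp-3 lies at X from 3257010 to 3258158, lbp-1 from 3259102 to 3259855 and lbp-2 from 3260610 to 3261473, all on the plus strand. The gaps between them are 943 bp and 754 bp, with no other gene of the table between them. The annotation gives 4 exons to lbp-3 and 3 exons each to lbp-1 and lbp-2. The cluster is 4.50 Mb to the left of deg-1, the gene at the central cut, so all 3 genes are on the linear segment and no member of the family is on the internal segment.

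The lbp-2 gene (WBGene00002254) had 19 raw counts in wild type against 540 in YBT7, or 23.3 and 440.9 normalized counts. This is 18.9-fold higher (interval 12.01 to 31.7), a log2 fold of 4.24 against a limit of 1.33. Of 1049 measured X-linked genes, 47 had a larger log2 fold. The difference was the largest of the family among members with a count in wild type.

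The lbp-1 gene (WBGene00002253), next to lbp-2, had 16 counts in wild type against 84 in YBT7. It was 3.50-fold higher (2.03 to 6.40), and its log2 fold of 1.81 passed its limit of 1.75 by 0.054. This call was lost when libraries were scaled by total counts, where the log2 fold was 1.74 and the limit 1.76, and where 8.97% of all measured genes were higher. It was also lost when size factors were set so that wild type is 1, which left the log2 fold at 1.81 and raised the limit to 1.83. The lbp-1 call therefore rests on the scaling.

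The lbp-3 gene (WBGene00002255) had 28 counts in wild type against 109 in YBT7, 2.60-fold as many after normalization (1.70 to 4.08). LBP-3 is known as a secreted carrier of a lipid signal from the intestine to neurons. Its log2 fold of 1.38 was 0.26 short of the limit of 1.64, so it was not called, although its counting interval lies above 1-fold. Among measured X-linked genes, 277 had a larger log2 fold than lbp-3 and 228 a larger one than lbp-1.

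Within the cluster the folds were unequal. The fold of lbp-2 was 5.41 times that of lbp-1 (interval 2.49 to 11.6) and 7.30 times that of lbp-3 (3.77 to 14.3), ratios that do not depend on how the libraries are scaled. The fold of lbp-1 was 1.35 times that of lbp-3 (0.655 to 2.85), an interval that holds 1. The 3 genes had like counts in wild type, from 16 to 28, and lbp-2 alone stood apart in YBT7, at 540 against 84 and 109. Related genes can share reads, which the counting leaves out, so values of adjacent family members are uncertain to that extent.

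**Figure D2:**
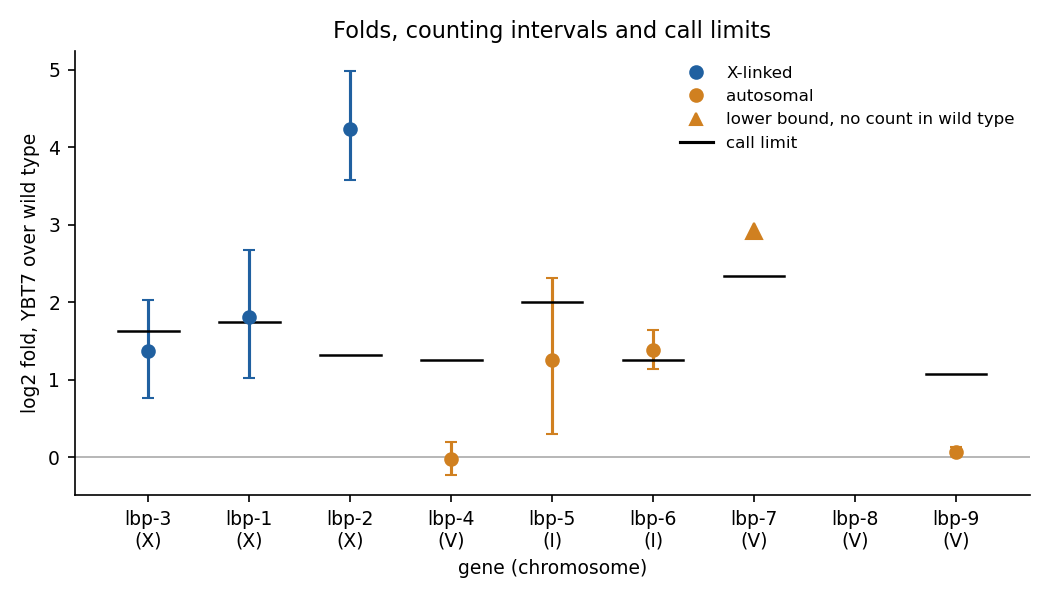
Log2 fold (YBT7 over wild type) of each lbp gene with its exact counting interval at 95% and the limit it had to pass to be called (black bars), X-linked genes in blue and autosomal genes in orange. The lbp-2 interval lies far above its limit, and the lbp-1, lbp-3, lbp-5 and lbp-6 intervals cross theirs. The triangle of lbp-7, labelled a lower bound, is its fold against the floor of 3 counts.

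Genes around the X cluster did not move as a block. Among the 5 nearest genes with at least 3 counts on each side, 5 were measured, of which 2 were called higher and 1 lower. To the left, drd-2 had 5 counts in wild type against 79 in YBT7, 10.5-fold higher (4.33 to 33.3), and F28B4.3 had 15 and 137, 6.09-fold higher (3.57 to 11.2). Between these genes and the cluster lies F40F4.7, with 71 and 48 counts and a log2 fold of -1.15, which was not called. To the right, K09C4.10 was called lower, with 52 counts in wild type against 21 in YBT7 and a log2 fold of -1.89. Directly right of lbp-2, sul-1 had 1 count and 3 counts, too few to be measured. Log2 folds of the measured neighbours ran from -1.89 to 3.40, a range that takes in lbp-1 and lbp-3. The value of lbp-2 lies above this range, although the interval of drd-2 overlaps that of lbp-2 (12.01 to 31.7). With the 10 nearest genes on each side, 3 of 13 measured genes were called higher and 1 lower. The rule called 18.8% of measured X-linked genes higher and 2.29% lower. The gene added among those called higher, dhs-26, had 0 counts in wild type against 24 in YBT7, so its fold has no upper limit.

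**Figure D3:**
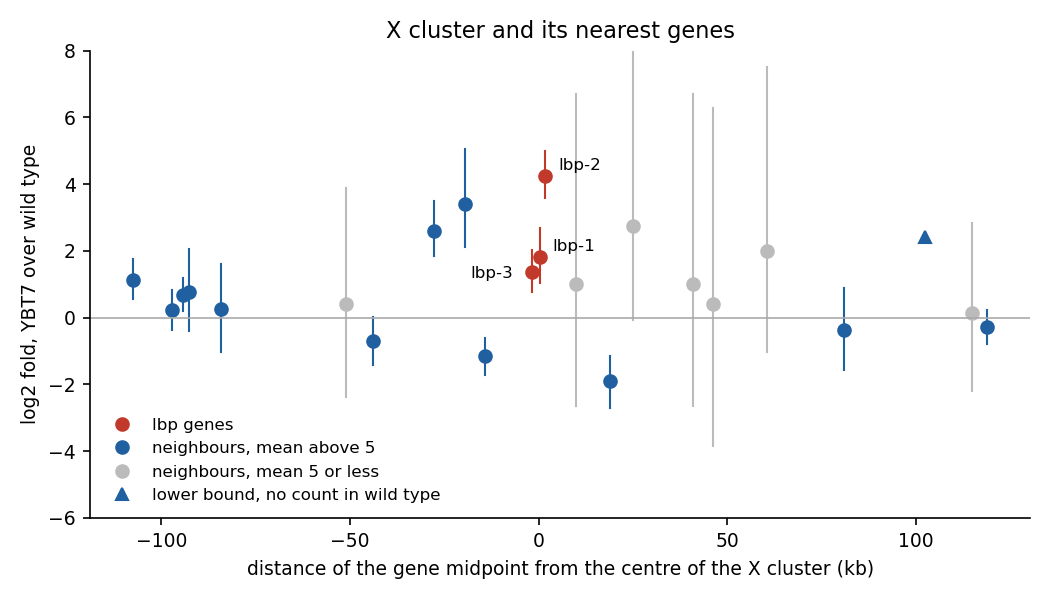
Log2 fold of the X-linked lbp genes (red) and of the 10 nearest genes on each side with at least 3 counts, against the distance of the gene midpoint from the centre of the cluster in kb, with lines for exact counting intervals at 95% that are clipped at the edge of the plot. Measured neighbours (blue) lie on both sides of 0, and most neighbours on the right have a mean of 5 or less (grey).

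The autosomal members fall at 4 places. The lbp-6 gene lies on chromosome I from 6728285 to 6729376 and lbp-5 from 6731269 to 6732280, both on the minus strand with 2 exons. On chromosome V, lbp-9 lies from 2068449 to 2069143, lbp-4 from 7820576 to 7821476, lbp-7 from 13879550 to 13880214 and lbp-8 from 13890700 to 13891362, all on the plus strand. The lbp-5 and lbp-6 genes are 1892 bp apart, and lbp-7 and lbp-8 are 10485 bp apart. Genes annotated on the opposite strand overlap lbp-6 (mec-6, with 2 counts in wild type against 4 in YBT7) and lbp-9 (Y40B10A.9, which was below 3 counts in all), and a piRNA gene, 21ur-15418, overlaps lbp-8 from the opposite strand.

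The lbp-6 gene (WBGene00002258) had 166 counts in wild type against 654 in YBT7, or 203.3 and 534.0 normalized counts. It was 2.63-fold higher (2.21 to 3.13), with a log2 fold of 1.39 against a limit of 1.26. This call held with total counts, where the log2 fold was 1.32. Its interval is narrow because of its depth, and it reaches below the limit. Of 7555 measured autosomal genes, 944 had a larger log2 fold.

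Its neighbour lbp-5 (WBGene00002257) had 12 counts in wild type against 43 in YBT7, a ratio of 2.39 (1.24 to 4.98) after normalization. LBP-5 has been tied to fat storage together with the nuclear receptor NHR-49. Its log2 fold of 1.26 was below the limit of 2.002 that applies at its low count, so it was not called. The folds of lbp-6 and lbp-5 differed by a ratio of 1.099 (0.516 to 2.18), so a difference between them was not detectable at this depth.

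No gene close to lbp-5 and lbp-6 was called higher with lbp-6. Of the 10 nearest genes, 9 were measured, none was called higher and 1, T23B3.5, was called lower (29 counts in wild type against 7 in YBT7, log2 fold -2.64). The rule called 8.25% of measured autosomal genes higher and 1.1% lower, and 9 genes are too few to set against these shares. The median log2 fold of the 9 was -0.39 and the highest was 0.80, below both members.

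The lbp-7 gene (WBGene00002259) was at 0 in wild type, against 34 counts in YBT7. Against the floor of 3 counts in wild type its fold was 7.56, which is not a minimum. The exact lower limit for counting is 5.82-fold, which does not assume a floor. It passed the rule, whose limit was 2.34 on the log2 scale. The next gene of the family, lbp-8 (WBGene00002260), had no count in either library and so has no fold. Among the 10 nearest genes of this place, 6 were measured and 2, nrf-5 and C06B3.6, were called higher, with log2 folds of 2.32 and 2.74. The share called higher over measured autosomal genes was 8.25%.

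LBP-8 is known in the worm intestine as the carrier of a lipid signal that starts with the lysosomal lipase LIPL-4 and ends at the nuclear receptors NHR-49 and NHR-80. In these gonads lipl-4 was at 0 in wild type, against 2 counts in YBT7, and nhr-80 had 0 and 3. The nhr-49 gene was detected well, with 226 and 295 counts and a log2 fold of -0.20, and was not called. Of this route, then, nhr-49 was the gene measured in both libraries.

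The lbp-9 gene (WBGene00021486) was by far the most abundant member, with 3576 counts in wild type against 5625 in YBT7. Its normalized counts were 4380 and 4593, a ratio of 1.05 (1.01 to 1.09). Its log2 fold was 0.069, which turned to -0.0020 when libraries were scaled by total counts, and it was not called. The lbp-4 gene (WBGene00002256) had 303 and 450 counts, or 371.1 and 367.4 normalized counts. Its ratio was 0.990 (0.854 to 1.15), with a log2 fold of -0.014 that turned to 0.012 with TMM scaling and 0.024 with upper quartile scaling. Both genes were level between the strains within the effect of scaling. Of the 10 nearest genes, 3 of 8 measured near lbp-4 and 1 of 6 near lbp-9 were called higher, and none was called lower. The rule called 8.25% of measured autosomal genes higher.

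Put in order of their folds, the 8 members with counts fell into 3 groups, a grouping read from the values. Of the 28 pairs of members, 20 had a ratio of folds whose interval left out 1, and these intervals are not adjusted for the number of pairs. The 8 pairs whose interval held 1 were lbp-4 with lbp-9, lbp-7 with lbp-2, and all 6 pairs among lbp-1, lbp-3, lbp-5 and lbp-6. The middle group thus holds a pair of X-linked and a pair of autosomal genes, with ratios between the strains from 2.39 to 3.50. At the top stand an X-linked gene, lbp-2, and an autosomal gene, lbp-7, whose fold has no upper limit. At the bottom are lbp-4 and lbp-9, both on chromosome V.

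**Figure D4:**
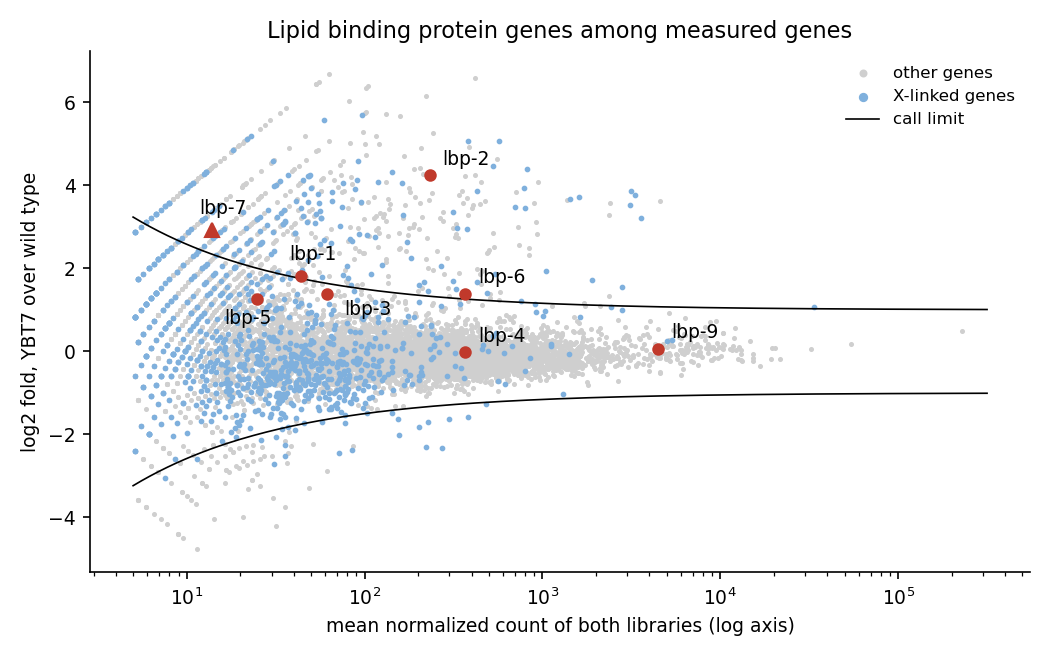
Log2 fold against mean normalized count (log axis) for measured genes with a count in both libraries, X-linked genes in light blue and all others in grey, with the call limits as black curves and the lbp genes in red (lbp-7 as a triangle at its lower bound). The lbp-1 and lbp-6 genes sit on the upper limit, lbp-3 and lbp-5 lie below it, lbp-4 and lbp-9 lie near 0, and lbp-2 lies at 4.24.

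The counts of the X-linked and of the autosomal members were also summed. The X-linked members went from 63 to 733 raw counts, 7.76-fold after normalization (5.99 to 10.2). The autosomal members had 4057 and 6806 raw counts, 1.118-fold (1.08 to 1.16). The ratio of the X-linked to the autosomal fold was 6.94 (5.34 to 9.15). These sums rest on few genes. The lbp-9 gene held 86.8% of all family counts in wild type (exact binomial interval 85.7 to 87.8%) and 74.6% in YBT7 (73.6 to 75.6%), and lbp-2 held 540 of the 733 X-linked counts in YBT7.

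Leaving out single members changed the comparison. Without lbp-9 the autosomal members had 481 and 1181 counts, 1.64-fold (1.47 to 1.82), and the ratio of the X-linked to this fold was 4.74 (3.57 to 6.36). Without lbp-2 the X-linked members had 44 and 193 counts, 2.92-fold (2.098 to 4.16). The ratio of this fold to that of all autosomal members was 2.61 (1.87 to 3.72), and to that of the autosomal members without lbp-9 it was 1.79 (1.26 to 2.58), both with intervals above 1. Set against lbp-5, lbp-6, lbp-7 and lbp-8, which together had 178 and 731 counts and a fold of 2.74 (2.32 to 3.24), the ratio of folds for lbp-1 and lbp-3 was 1.07 (0.733 to 1.58), an interval that holds 1. Of these autosomal counts lbp-6 alone held 166 and 654, and lbp-8 held none, so this ratio is mostly a comparison with lbp-6. The members left out here were picked after their values were seen. By calls, 2 of 3 measured X-linked members and 2 of 5 measured autosomal members were higher, where the rule called 18.8% of measured X-linked genes and 8.25% of measured autosomal genes higher. No member was called lower, against 2.29% of X-linked and 1.1% of autosomal genes, and calls in either direction made up 21.1% and 9.34%. The X-linked members share 1 place on the chromosome and are not separate draws from it.

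The order of the members by level also changed. Levels between genes were compared as CPM per kilobase of exon, although reads come mainly from transcript ends, which weakens the correction for length. In wild type lbp-9 stood at 2207, lbp-4 at 178 and lbp-6 at 110. Below them lbp-3 was at 15.6, lbp-1 at 10.03, lbp-2 at 8.71 and lbp-5 at 8.68, each with a counting interval that overlaps that of the next in order, and lbp-7 and lbp-8 had no count. In YBT7 lbp-9 stood at 2204 and was followed by lbp-6 at 274, lbp-4 at 168 and lbp-2 at 157, and the intervals of lbp-4 (153 to 184) and lbp-2 (144 to 171) overlap. After them came lbp-3 at 38.6, lbp-1 at 33.4, lbp-5 at 19.8 and lbp-7 at 14.5, with overlap between lbp-3 and lbp-1 and between lbp-5 and lbp-7. The lbp-2 gene thus went from the level of lbp-1, lbp-3 and lbp-5 to that of lbp-4.

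Other genes of fat handling gave a background for the family. Among the fatty acid and retinol binding proteins of the far family, a structurally different family, 2 of 4 measured genes were called higher. The far-1 gene had 82 counts in wild type against 589 in YBT7, 4.79-fold higher (3.80 to 6.11), and far-6 had 3 and 40, a ratio of 8.89 (2.83 to 44.9). The far-2 gene, with 1098 and 3540 counts, had a log2 fold of 1.104 just under its limit of 1.109. None of the measured far genes is X-linked. Among the acyl-CoA binding proteins, 1 of 4 measured genes was called higher, the X-linked acbp-3 with 2 and 32 counts (ratio 10.7, interval 2.72 to 91.9), while acbp-5 stood at a log2 fold of 0.084.

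Genes that make and modify fatty acids were called higher in 7 of 14 measured cases, against 8.25% of measured autosomal genes. None of the 14 is X-linked. Those called include the desaturase genes fat-2, 8.36-fold higher (6.38 to 11.2), fat-6, 7.84-fold higher (5.49 to 11.6), and fat-3, 7.17-fold higher (4.71 to 11.4). The elongase gene elo-6 was 3.51-fold higher (2.58 to 4.87). Those not called include fasn-1, at a log2 fold of -0.69, pod-2, at 0.070, and elo-1, at 0.048. The lysosomal lipase gene lipl-5 had 30 and 849 counts, 18.9-fold higher (13.1 to 28.1), and lipl-2 and lipl-1 were at 0 in wild type, against 28 and 19 counts in YBT7. Against these, atgl-1, the lipase gene of stored fat, stood at a log2 fold of -0.32. In all, 3 of 6 measured lipase genes were called higher, and the median log2 fold of the list was 1.96, or 0.88 with lipl-1 and lipl-2 set against the floor of 3 counts.

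For genes that activate and burn fatty acids, median folds were close to that of all genes, but calls were more frequent. The rule called 23.1% of measured acyl-CoA synthetase genes and 22.7% of measured oxidation genes higher, against 9.55% of all measured genes. Of 13 measured acyl-CoA synthetase genes 3 were called higher, each with 1 count in wild type (acs-22, acs-7 and acs-14), and the median log2 fold was -0.070. Of 22 measured genes of fatty acid oxidation 5 were called higher and 1 lower, with a median of 0.057. Those called higher include ech-7, with 3 and 110 counts (ratio 24.4, interval 8.15 to 120.4), and hacd-1, 9.52-fold higher (4.46 to 24.3), whereas the carnitine palmitoyltransferase gene cpt-1 stood at 0.063. Of 7 measured regulators of fat metabolism 1 was called higher, nhr-68, at 0 in wild type against 15 counts in YBT7.

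The called markers of intestine, body wall muscle and hypodermis moved in the same direction as the called lbp genes, while pharynx and gonadal sheath markers were not called. Of 12 measured intestine markers 10 were called higher and none lower, and the summed level of the whole list was 162.2 CPM in wild type and 2160 in YBT7. Both asp-1 (166 and 3139 counts) and cpr-1 (5 and 537 counts), protease genes of the intestine, were among them, while elt-2, the gene for the defining transcription factor of the intestine, was at 0 in wild type, against 11 counts in YBT7. Body wall muscle markers were called higher in 9 of 14 measured genes, with summed levels of 368.6 and 1488 CPM, and hypodermis markers in 3 of 5, with 221.0 and 1646. The muscle fate gene hlh-1 had 0 and 2 counts, and rol-6, dpy-13 and wrt-2 of the hypodermis had none in either library. The hypodermis marker lin-26, with 212 and 300 counts and a log2 fold of -0.084, was measured and not called. Markers of the gonadal sheath and spermatheca were called in 0 of 4 cases (335.5 and 329.0 CPM), pharynx markers in 0 of 5 (59.2 and 58.1), and sperm markers were called lower in 3 of 6 (73.4 and 50.8). The 3 coelomocyte markers, none of them measured, were at 0 in wild type and summed to 22 counts in YBT7.

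Yolk genes moved the same way. The 6 vitellogenin genes, made in the intestine, were each called higher, from 9.32-fold for vit-4 to 14.5-fold for vit-2, and rme-2, the yolk receptor gene of oocytes, was not called, at a log2 fold of -0.72. By point value, the fold of lbp-2 (18.9) lies above those of the vitellogenin genes and of the called muscle markers. The called muscle markers ended at 10.2-fold for unc-27. The range of the called intestine markers, which reached 71.6-fold for cpr-1, takes in the fold of lbp-2. The lbp-2 interval (12.01 to 31.7) overlaps those of unc-27 and of each vitellogenin gene except vit-4. Counting error alone thus does not set lbp-2 apart from these genes. The intervals of vit-4 and of the other called muscle markers lie below that of lbp-2. The part of these tissues in the counts of lbp-1, lbp-2, lbp-6 and lbp-7 was not tested.

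**Figure D5:**
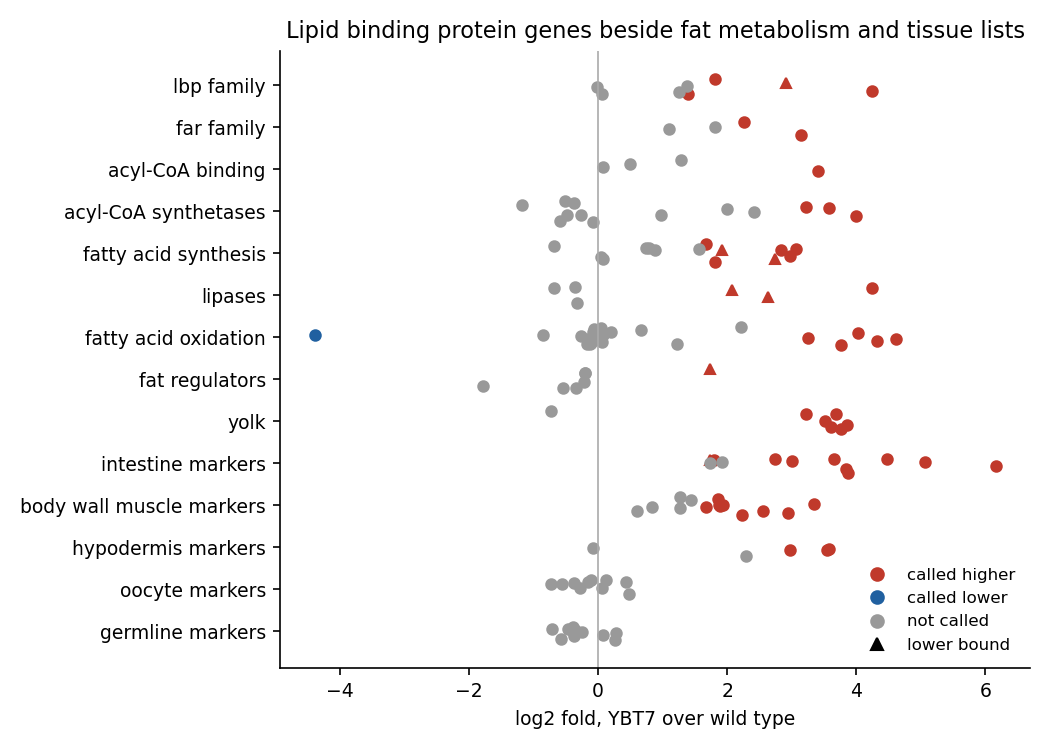
Log2 fold (YBT7 over wild type) of each measured gene in the lbp family, in lists of fat metabolism genes and in lists of tissue markers, coloured by call, with triangles for lower bounds of genes with no count in wild type and vertical scatter for display only. The lbp genes spread from about 0 to 4.24, measured intestine, vitellogenin and muscle genes lie to the right of 0, the yolk receptor gene rme-2 lies at -0.72, and no oocyte or germline marker was called.

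For lbp-2, lbp-6 and lbp-7, the genes with the most similar values were taken by their difference in log2 fold, among genes with a mean normalized count within 1.5-fold, over the 2 libraries. For lbp-2 these were col-95 (17 and 497 counts), F55H12.4 (14 and 442) and lec-6 (15 and 478). For lbp-6 they were C14E2.12 (219 and 869 counts), a gene without a symbol (WBGene00004677, 231 and 903) and Y57G11B.5 (138 and 522). For lbp-7, the nearest in mean among genes with no count in wild type were nlp-20 with 35 counts in YBT7, and K03H6.2 and ZK177.9 with 33 each. With a single fold per gene such likeness is weak, and it says only that these genes had like counts.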

How the data were processed

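Per the labels and methods, RNA was primed at its poly(A) end, and the primer held a molecular identifier. The authors used cutadapt (1.12) for trimming, TopHat2 (2.1.1) for alignment to WBcel235, and HTSeq (0.6.0) at default settings to count reads in genes. Whether identifiers were collapsed is not given in the sources used here. The deposited table holds raw counts, which were used. Its normalized values, log2 folds and decisions, made by the authors with DESeq2 (1.12.4), were not used.

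Size factors are medians of ratios over the 10603 genes detected in each library, out of 11683 genes that have at least 3 counts. Genes at 0 in 1 library passed the limit by definition, with a fold set against a floor of 3 counts. Wherever genes with a larger log2 fold are counted, all measured genes at 0 in wild type are among them. Fold intervals are exact conditional ones and shares have Clopper-Pearson intervals, at 95%. Ratios of folds are plain odds ratios of the raw counts, with exact conditional intervals. All cover counting error only, for amplified reads that may not be independent molecules. The steps were tested on simulated data. Exons came from Ensembl release 115 of WBcel235, which holds all 9 members.

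The members and lists were chosen with earlier results of these data known. The named genes are the members, the 5 nearest genes with at least 3 counts on each side, up to 4 genes of each list (called ones first, then by mean), and the 3 genes most like lbp-2, lbp-6 and lbp-7. Genes named beyond these, for low or absent counts or as examples that were not called, were chosen after their values were seen. The alternatives included scaling by TMM or upper quartile in edgeR (4.0.16), by total counts, other size factors, other limits and minimum means, and a pseudocount. Scripts ran in Python 3.11.15 with scipy 1.17.1 and in R 4.3.3.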

Additional observations from a re-analysis of the deposited data

How the results depend on the processing

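The count of 4 called lbp genes was 3 with total counts and with wild-type size factors set to 1 (lbp-1 lost; 8.97% and 8.66% of all measured genes were called higher), 6 with a fixed limit of 2-fold (lbp-3 and lbp-5 added; 17.2% of all measured genes passed it) and 2 with a fixed limit of 4-fold (lbp-2 and lbp-7; 10.7% passed). Under TMM, upper quartile and autosomal size factors, size factors without somatic and yolk lists, a minimum mean of 10, no minimum, and a pseudocount of 1, the same 4 genes were called, while the share of all genes called higher, 9.55% in the report, ran from 8.27% with the pseudocount to 14.1% with no minimum. The number of all genes called higher, 823, was 1644 with no minimum and 1482 with the fixed limit of 2-fold. The log2 fold of the X-linked total, 2.96, was 1.55 without lbp-2 and 3.57 without lbp-3. That of the autosomal total, 0.16, was 0.091 with total counts, 0.076 without lbp-6 and 0.71 without lbp-9. The median log2 fold of the measured neighbours of the X cluster was -0.71 with 5 genes on each side and 0.25 with 10. Of 49 recomputed log2 folds of single members, 48 stayed within the counting interval, the exception being lbp-9 with total counts. This is a weak check, since each other scaling shifts all genes by the same amount. Size factors with wild type at 1 and those without somatic and yolk lists left every fold as it was. No paired analysis was possible because each strain has 1 library. Depth limits lbp-5, lbp-7 and lbp-8 most.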
